A study of Mus musculus with 55 samples.

Results

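The 9 genes described here code for proteins of the Myc and Max network: Myc, Mycl, Max, Mxd1, Mxd3, Mxd4, Mxi1, Mga and Mlx. They were taken by symbol from a count table of 55421 genes, and all 9 were found there. Their levels were read in 46 RNA-seq libraries of mouse bone marrow, 22 from wildtype (WT) and 24 from Tet2 knockout (Tet2KO, Tet2-/-) mice on a C57BL/6 background. Each library came from 1 of 6 populations isolated by flow cytometry: long-term and short-term hematopoietic stem cells (LT-HSC and ST-HSC), common myeloid progenitors (CMP), granulocyte-monocyte progenitors (GMP), megakaryocyte-erythroid progenitors (MEP) and common lymphoid progenitors (CLP). There were 4 libraries in each group of genotype and population, except for 3 in WT LT-HSC and 3 in WT ST-HSC. The knockout was a floxed Tet2 allele recombined by Mx1-Cre, a transgene that interferon switches on in blood cells and also in other tissues. It was induced with poly(I:C) in mice of 4 weeks, which were then kept for another 16 weeks, and whether the WT mice received poly(I:C) or carried the floxed allele is not given in the sources used here. The comparison asks how the network is expressed along blood cell differentiation and whether its levels differ when Tet2, an enzyme that oxidises methylated cytosine in DNA, is deleted.

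Max is the shared partner of the network. Myc, Mycl and Mycn each bind DNA as a pair with Max at short sequences called E-boxes and raise transcription of genes for ribosome assembly, nucleotide synthesis and the cell cycle. The Mxd proteins and Mxi1 (also called Mxd2) pair with Max at the same sequences and recruit Sin3 corepressors and histone deacetylases, so they oppose Myc, and Mxd1 is known to be made as cells leave the cell cycle and differentiate. Mga also pairs with Max and belongs to a repressive Polycomb complex that holds Pcgf6, while Mlx pairs with Mlxip, Mlxipl, Mxd1, Mxd4 and Mnt in place of Max. In the bone marrow, Myc is known for balancing self-renewal of stem cells against their differentiation.

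In the mouse genome (build mm10), Myc lies at chr15:61985391-61990374 on the plus strand, Mycl at chr4:122995652-123002485 (plus) and Max at chr12:76937269-76962201 (minus). Mxd1 lies at chr6:86647042-86669161 (minus), Mxd3 at chr13:55325168-55329823 (minus), Mxd4 at chr5:34173883-34187720 (minus) and Mxi1 at chr19:53310518-53375810 (plus). Mga lies at chr2:119897228-119969581 (plus) and Mlx at chr11:101087277-101092207 (plus). Exons of Mxd3, Mxd4, Mxi1 and Mlx share 105, 514, 194 and 385 bases with Prelid1, Gm42846, Gm10197 and Psmc3ip on the other strand, and reads there cannot be told apart without strand information. Myc, Mycl, Max, Mxd1 and Mga share no exon base with another annotated gene.

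Because the network's proteins meet at E-boxes, the start regions of its own genes were searched for the E-box CACGTG, which reads the same on both strands. RefSeq start regions (build GRCm38.p6, 300 bases each, 250 before and 50 after the start) were found for 8 of the 9 genes. The E-box was in the regions of 3 of these 8 genes, against 8.09% of the 27025 genes that have a region, and in those of 16 of 51 genes (31.4%) of a list of known Myc targets. The members with a match were Max, Mxd4 and Mlx, and the stretches around it are shown with the E-box in capitals, 5′ to 3′ on the strand of the gene.
Max, chr12:76962236-76962261, E-box at -3 from the start: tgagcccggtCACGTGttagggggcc
Mxd4, chr5:34187914-34187939, E-box at -219: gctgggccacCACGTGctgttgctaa
Mlx, chr11:101087240-101087265, E-box at -40: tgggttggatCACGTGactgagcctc
The bases beside the E-box differ between the 3 genes, and the letters were not in the windows of Mycl, Mxd1, Mxd3, Mxi1 and Mga. A match is a description of the sequence, and no binding was measured.

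The libraries held between 50458473 and 102148079 counts each (median 70118186.5), so 3 counts are worth 0.0294 to 0.0595 CPM (counts per 1000000 counts of a library), and these limits cover counting error only. Levels are given as CPM scaled by TMM, a method that corrects for RNA composition. The limits above are those before scaling. They are higher after it in libraries with a TMM factor under 1, the lowest being 0.546 in WT CLP replicate 4. Summed stem cell markers reached 586 to 970 CPM in WT LT-HSC and 24.9 to 49.0 CPM in WT MEP, and 45 of 46 libraries resembled their own population best. Lymphoid markers summed to 146823 to 269559 CPM in WT CLP, but 1 of the 10, Rag1, was at 0 in every WT CLP library. Mature B cell genes summed to 4243 to 19924 CPM in WT CLP, against at most 393 CPM in any other WT group. The part of mature B cells in the CLP values was not tested. The CLP libraries stood apart from each other, with a median correlation to their own group of at most 0.675, against at least 0.836 in every other group. Of the Tet2KO CLP libraries, replicates 2 and 3 had summed lymphoid markers of 2354 and 38833 CPM, against 132601 CPM or more in all other CLP libraries. Replicate 3 resembled GMP best, so several tests that rest on CLP are also given without these 2. The Tet2KO F tests of Myc and Mga, the Mxd1 mean over populations and the interaction test are given with these 2 included. In Tet2KO CLP replicates 4 and 5 alone, Myc was at 146 and 125 CPM. Tet2 itself was counted over all of its exons, which does not show whether the floxed part is present, and its range in Tet2KO overlapped the WT range in every population (12.1 to 40.4 against 11.3 to 14.3 CPM in LT-HSC and 39.7 to 60.5 against 33.2 to 41.7 CPM in GMP). In bulk samples, fewer cells of a type and less RNA per cell cannot be told apart.

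Per kilobase of exon, Myc was by far the most abundant member. Averaged over the 6 WT populations, its level was 112 CPM per kb, followed by Mlx with 23.6, Max with 9.58, Mxd1 with 4.36, Mga with 3.57, Mxd4 with 2.25, Mxi1 with 2.15 and Mxd3 with 1.61 CPM per kb. Mycl, the Myc paralogue first found in lung tumours, was close to absent: 37 of 46 libraries had no count, which allows at most 0.0595 CPM in each before TMM scaling. In Tet2KO the order of the leading genes was Myc with 104, Mlx with 21.5 and Max with 11.3 CPM per kb.

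**Figure D1:**
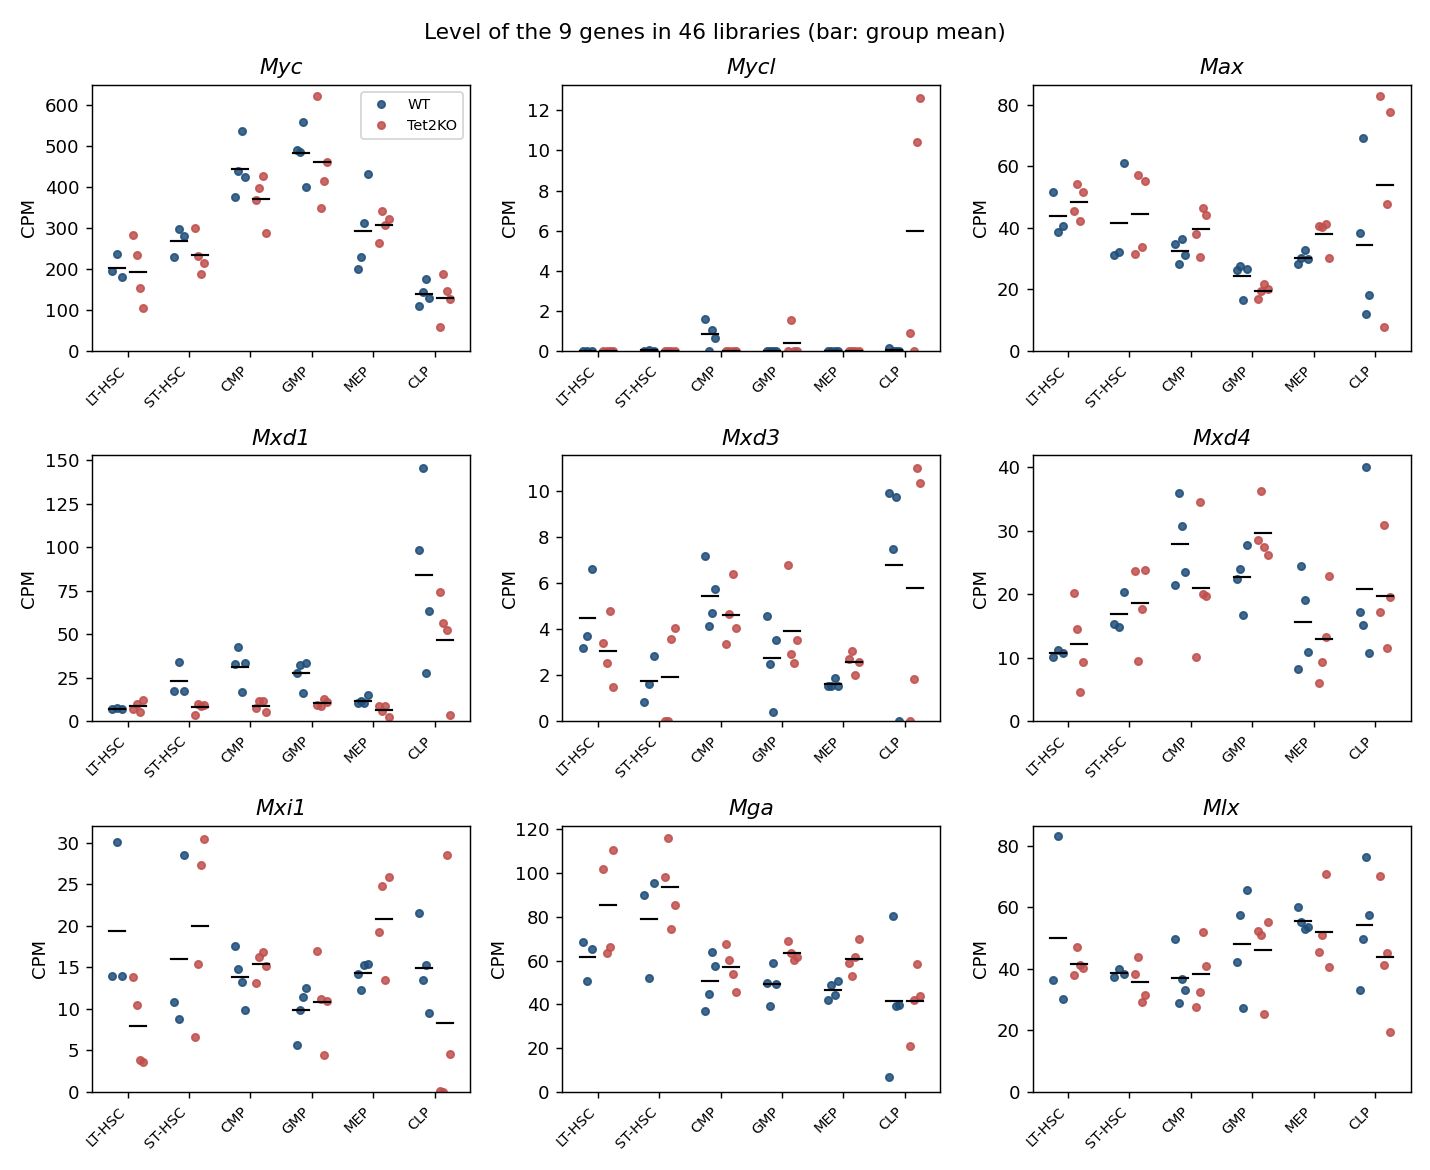
Level of each of the 9 genes in CPM (vertical axis from 0) in each library of 6 populations, with WT in blue, Tet2KO in red and a bar at each group mean. Myc is highest in CMP and GMP and lowest in CLP in both genotypes, and the Tet2KO points of Mxd1 lie under all WT points in ST-HSC, CMP, GMP and MEP.

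Myc was highest in the myeloid progenitors and lowest in the lymphoid ones. The 4 WT GMP libraries held 490, 485, 558 and 400 CPM of Myc (483 ± 64.4, SD, n = 4), and the WT CMP libraries 376, 440, 536 and 424 CPM (444 ± 67.2). WT MEP libraries held 199, 228, 312 and 431 CPM (292 ± 104), and WT ST-HSC libraries 228, 297 and 280 CPM (268 ± 36.1, n = 3). In WT LT-HSC the values were 195, 235 and 179 CPM (203 ± 29.0), and in WT CLP they were 109, 143, 176 and 128 CPM (139 ± 28.5). Neighbours in this order overlapped, except that every WT LT-HSC library was above every WT CLP library. Across the 6 WT populations Myc differed (edgeR quasi-likelihood F test, adjusted p = 8.81e-06, called at an adjusted p under 0.05), in a test that called 44.2% of all genes.

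The Tet2KO libraries gave the same order of means for Myc, from 461 ± 116 CPM in GMP through 370 ± 60.4 in CMP, 308 ± 33.0 in MEP, 233 ± 48.2 in ST-HSC and 193 ± 80.1 in LT-HSC to 129 ± 54.7 CPM in CLP. All neighbours overlapped here. The same F test gave an adjusted p of 0.000415 for Myc in Tet2KO, with 39.6% of all genes called. Steps between populations were called only at 2-fold or more. No step of Myc reached that in the fit of all libraries of a genotype without a replicate block. The largest was -0.92 on the log2 scale (SE 0.22, adjusted p = 0.00434) in WT CLP against ST-HSC. It passed 2-fold and was called without ST-HSC replicate 2 (-1.01), without CLP replicate 4 (-1.08) and with a replicate block (-1.02). The same held for WT MEP against GMP without MEP replicate 5 (-1.04) and for Tet2KO CLP against ST-HSC without CLP replicate 3 (-1.12).

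Mxd1, the Myc antagonist made as cells differentiate, had the widest range over the WT populations, 11.6-fold between the highest and the lowest mean among the members other than Mycl. WT CLP libraries held 98.5, 146, 28.0 and 63.2 CPM and WT LT-HSC libraries 6.86, 7.53 and 7.29 CPM. Between them lay WT CMP (31.4 ± 10.6 CPM, n = 4), GMP (27.5 ± 7.78), ST-HSC (23.1 ± 9.58, n = 3) and MEP (11.9 ± 2.27). The ranges of CLP, CMP, GMP and ST-HSC overlapped from neighbour to neighbour, while MEP was under all ST-HSC libraries and LT-HSC under all MEP libraries. In Tet2KO, the means outside CLP were all between 6.41 and 10.7 CPM and overlapped, and CLP had 74.3, 56.4, 52.5 and 3.57 CPM, in which replicate 5 was far below the others.

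Steps between populations were called at an adjusted p under 0.05 and at least 2-fold. In WT, Mxd1 was called in 3 of the 6 steps: it rose in CLP against ST-HSC (log2 fold change 1.89, SE 0.44, adjusted p = 0.00344, 24.1% of all genes called) and fell in MEP against CMP (-1.44, SE 0.39, adjusted p = 0.0254, 6.39% called) and in MEP against GMP (-1.27, SE 0.39, adjusted p = 0.0269, 14.5% called). Each of the 2 falls lost its call when any of 6 libraries was left out, with adjusted p between 0.0556 and 0.0947 there. No member was called in WT ST-HSC against LT-HSC, CMP against ST-HSC or GMP against CMP, where 0.18%, 5.03% and 3.17% of all genes were called. At an unadjusted p under 0.05 edgeR gave 1 member in each of these steps (Mxd1, Myc and Mycl), beside 8.76%, 20.7% and 16.9% of all genes. In DESeq2, Mxd1 also rose in WT ST-HSC against LT-HSC (1.69, adjusted p = 0.00956).

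In Tet2KO, the step from ST-HSC to CLP called 2 members beside 19.5% of all genes. Mxd1 rose (2.52, SE 0.62, adjusted p = 0.0066) and Mga, the Polycomb-linked partner of Max, fell (-1.20, SE 0.25, adjusted p = 0.00165). Without the 2 Tet2KO CLP libraries that stood apart, neither was called: Mxd1 had 1.71 (adjusted p = 0.0833) and Mga -0.96 (adjusted p = 0.0105, under 2-fold). The call of Mga was also lost without CLP replicate 2 alone (-0.98). Over the 6 Tet2KO populations the F test of Mxd1 gave an adjusted p of 0.00148, and of 0.138 without these 2 libraries. The other 5 Tet2KO steps, ST-HSC against LT-HSC, CMP against ST-HSC, GMP against CMP, MEP against CMP and MEP against GMP, called no member and 0.124%, 3.34%, 3.1%, 3.55% and 15.5% of all genes. At an unadjusted p under 0.05 edgeR gave 0, 2, 2, 0 and 4 members in these steps, beside 8.33%, 18.7%, 17.8%, 16.5% and 30.9% of all genes. DESeq2 called 1 member beside 1705 genes in GMP against CMP and 2 beside 4586 genes in MEP against GMP. Mxd4 was 1 of these in MEP against GMP (-1.25, adjusted p = 0.035), and edgeR called it there without MEP replicate 5 (-1.69, adjusted p = 0.0345).

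Max, Mlx, Mxd4, Mxi1 and Mxd3 passed the F test in neither genotype with all libraries in edgeR. Their adjusted p values over the 6 populations were 0.474 and 0.121 for Max (WT and Tet2KO), 0.492 and 0.663 for Mlx, 0.101 and 0.163 for Mxd4, 0.538 and 0.81 for Mxi1, and 0.393 and 0.936 for Mxd3. For Max, the obligate partner, the WT means ran from 24.2 ± 5.23 CPM in GMP to 43.7 ± 7.04 CPM in LT-HSC, and GMP was under all MEP libraries in both genotypes. Max passed in Tet2KO without CLP replicate 3 (adjusted p = 0.000352), without CLP replicates 2 and 3 (0.00118) and in DESeq2 (0.0259). Mxd4 passed in WT without CLP replicate 4 (adjusted p = 0.0197) and in DESeq2 (0.041), and Mxd3 passed in WT without CLP replicate 5 (adjusted p = 0.0148). Mga passed in Tet2KO (adjusted p = 0.00599) and had 0.526 in WT, and its means were highest in ST-HSC in both genotypes (79.2 ± 23.9 CPM in WT and 93.5 ± 17.9 CPM in Tet2KO).

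Mycl passed the F test in both genotypes (adjusted p = 0.0181 in WT and 0.0251 in Tet2KO), from counts in 9 of 46 libraries. These were WT CMP with 1.59, 1.02 and 0.651 CPM, Tet2KO CLP with 0.888, 10.4 and 12.6 CPM, and 3 single libraries of WT ST-HSC, WT CLP and Tet2KO GMP with 0.047, 0.152 and 1.51 CPM. In DESeq2 the adjusted p was 0.501 in WT and 0.272 in Tet2KO, and in edgeR the Tet2KO call was lost without CLP replicate 4 or CLP replicate 5 (adjusted p = 0.0502 and 0.0506). A replicate block ended both calls (adjusted p = 0.0855 in WT and 0.0643 in Tet2KO). Mycl did not pass the filter on low counts in the comparison of genotypes within any population.

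To set Myc against its antagonists, the CPM per kb of Mxd1, Mxd3, Mxd4 and Mxi1 were summed in each library. The summed antagonists were 9.93 to 14.2 CPM per kb in WT CMP and 11.6 to 27.5 in WT CLP, and 5.17 to 6.99 in WT MEP. Myc exceeded this sum 13.04- to 33.4-fold in WT GMP and 10.9- to 19.9-fold in WT CMP, but only 1.72- to 4.32-fold in WT CLP and 1.67- to 5.89-fold in Tet2KO CLP (3.04 and 5.89 in replicates 4 and 5). All 8 CLP libraries were thus below the other 38, whose lowest ratio was 7.65, in Tet2KO ST-HSC. These are transcript levels, and the ratio of the proteins was not measured.

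**Figure D2:**
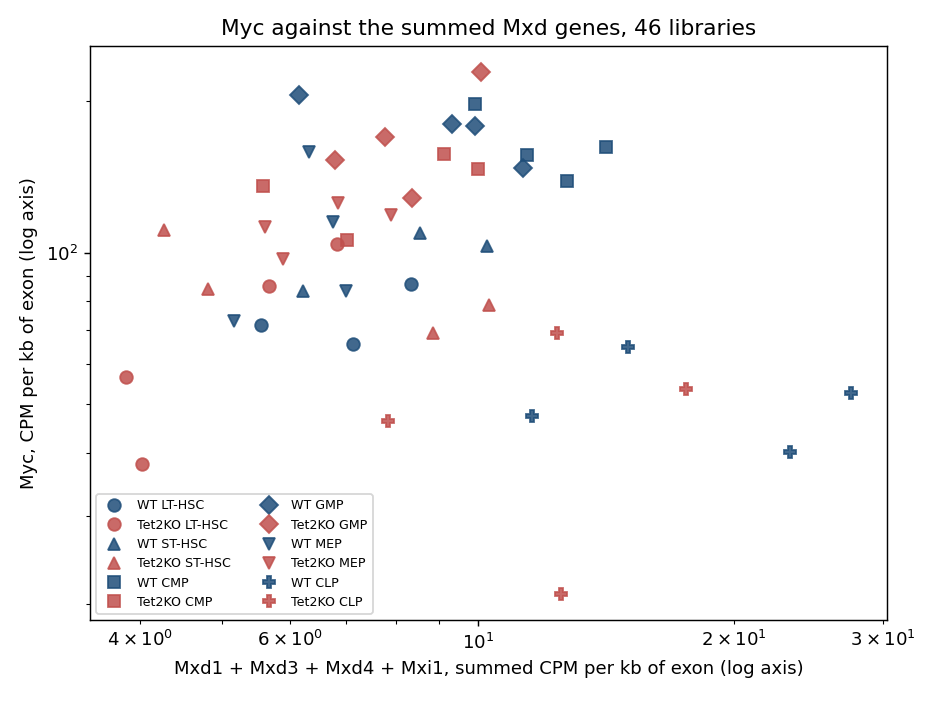
Myc (vertical, CPM per kb of exon, log axis) against the sum of Mxd1, Mxd3, Mxd4 and Mxi1 (horizontal, CPM per kb of exon, log axis), with 1 point for each of 46 libraries, colour for genotype and symbol for population. The ratio of the vertical to the horizontal value is 1.67 to 5.89 in the CLP libraries and 7.65 or more in all others. On each axis alone, the CLP points overlap those of other populations.

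Between genotypes, Mxd1 was the only member called in any population. It fell in Tet2KO CMP and GMP, and the Tet2KO libraries were also below all WT libraries in ST-HSC and MEP, while LT-HSC and CLP overlapped. In CMP, WT libraries held 32.7, 42.5, 16.9 and 33.8 CPM of Mxd1 and Tet2KO libraries 7.45, 11.4, 11.4 and 5.34 CPM. All 4 Tet2KO libraries lay below all 4 WT libraries. The log2 fold change was -1.83 (SE 0.34, edgeR quasi-likelihood test, adjusted p = 0.0115), and 4.53% of all genes tested in CMP were called. In GMP, WT libraries held 27.8, 32.6, 16.5 and 33.3 CPM and Tet2KO libraries 9.61, 8.79, 13.02 and 11.3 CPM. The genotypes again did not overlap, and the log2 fold change was -1.39 (SE 0.22, adjusted p = 0.00247), with 4.38% of all genes called.

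In ST-HSC, WT libraries held 17.5, 34.1 and 17.6 CPM of Mxd1 and Tet2KO libraries 3.70, 10.2, 8.94 and 9.28 CPM. The log2 fold change of -1.49 (SE 0.45) did not pass in edgeR (adjusted p = 0.553, with 0.0185% of all genes called), and DESeq2 gave an adjusted p of 0.0491. In MEP, WT libraries held 10.5, 11.7, 10.3 and 15.2 CPM and Tet2KO libraries 8.64, 5.89, 8.80 and 2.33 CPM. The difference of -0.91 (SE 0.38, adjusted p = 0.273) was not called, in a comparison that called 4.35% of all genes and no member. At an unadjusted p under 0.05 edgeR gave 4 members in MEP (Max, Mxd1, Mxi1 and Mga), 1 in ST-HSC (Mxd1) and 0 in LT-HSC and CLP, beside 16.6%, 6.16%, 5.22% and 3.79% of all genes. The 2-sided exact permutation test of log2 CPM gave p = 0.029 in each of ST-HSC, CMP, GMP and MEP, the smallest value that 4 against 4 or 4 against 3 libraries allow.

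In LT-HSC, Mxd1 was at 6.86, 7.53 and 7.29 CPM in WT and 6.85, 9.72, 5.06 and 12.5 CPM in Tet2KO, a log2 fold change of 0.25 (SE 0.44, adjusted p = 0.999, 0.0183% of all genes called). In CLP the difference was -0.87 (SE 0.81, adjusted p = 1, 0.00766% called), and only the 3.57 CPM of Tet2KO replicate 5 was under the lowest WT library. Without Tet2KO replicates 2 and 3 it was -1.65 and was not called. Averaged over the 6 populations, Mxd1 fell by 1.04 on the log2 scale in Tet2KO (SE 0.21, adjusted p = 0.00101), with 3.44% of all genes called. It was the only member called there. Leaving out Tet2KO replicate 5 or WT replicate 3 in all populations took the mean under 2-fold (-0.92 and -0.86, adjusted p = 0.000632 and 0.0305). The size of the Mxd1 difference was not shown to vary between populations (F test of the interaction, adjusted p = 0.566), and no member passed that test, which called 2.66% of all genes.

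The calls of Mxd1 in CMP and GMP depended on the libraries from which the spread was estimated. With all 46 libraries in the fit the log2 fold changes were -1.82 and -1.37, close to those within each population, but the adjusted p values were 0.0799 and 0.509. Leaving out any 1 of the 8 libraries kept both calls, with log2 fold changes from -2.04 to -1.65 in CMP and from -1.56 to -1.30 in GMP. A replicate block ended the call in CMP (-1.83, adjusted p = 0.0573).

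**Figure D3:**
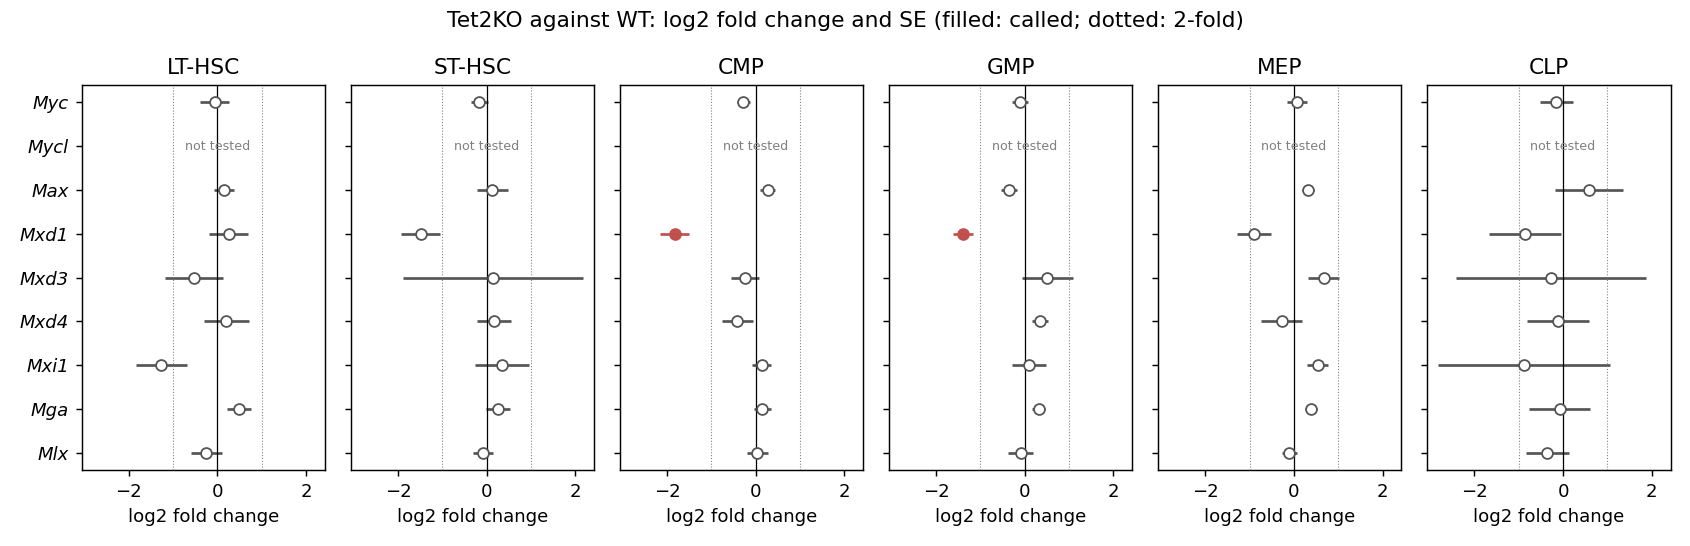
Log2 fold change of Tet2KO against WT (horizontal axis) with its SE for each gene in each of 6 populations, where filled points are called, dotted lines mark a 2-fold change, and Mycl was not tested. The filled points are Mxd1 in CMP at -1.83 and in GMP at -1.39.

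Myc itself overlapped between the genotypes in every population. Its log2 fold changes in Tet2KO were -0.06 (SE 0.33) in LT-HSC, -0.17 (SE 0.19) in ST-HSC, -0.28 (SE 0.15) in CMP, -0.11 (SE 0.18) in GMP, 0.07 (SE 0.22) in MEP and -0.15 (SE 0.38) in CLP, with adjusted p values of 0.363 or more. In CMP, where the difference was largest against its error, WT libraries held 376 to 536 CPM and Tet2KO libraries 368, 398, 427 and 287 CPM. The mean over populations was -0.12 (SE 0.11, adjusted p = 0.827).

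The genotypes of Mga, Mxd3 and Mxi1 were separate in single populations without a call. Mga was higher in Tet2KO GMP (69.0, 63.3, 60.2 and 61.5 against 49.8, 39.4, 58.9 and 49.4 CPM, log2 fold change 0.32, SE 0.15, adjusted p = 0.306) and in Tet2KO MEP (58.8, 53.0, 61.6 and 69.9 against 42.1, 48.9, 44.3 and 50.5 CPM, 0.38, SE 0.13, adjusted p = 0.152). Mxd3, known from dividing cells, was at 2.70, 3.05, 2.02 and 2.57 CPM in Tet2KO MEP against 1.51, 1.52, 1.87 and 1.51 CPM in WT (0.67, SE 0.36, adjusted p = 0.41). Mxi1 was at 13.8, 10.4, 3.88 and 3.57 CPM in Tet2KO LT-HSC against 13.9, 30.1 and 13.9 CPM in WT (-1.27, SE 0.58, adjusted p = 0.986), where the highest Tet2KO and the lowest WT library nearly met.

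Over the 8 members tested in each population, the libraries of the genotypes did not overlap for 1 member in LT-HSC, 1 in ST-HSC, 1 in CMP, 2 in GMP, 3 in MEP and 0 in CLP. Over all genes tested, this was so for 7.04% in LT-HSC, 8.2% in ST-HSC, 15.8% in CMP, 13.2% in GMP, 13.1% in MEP and 4.04% in CLP. With 8 members such counts are too small to be set apart from these shares, and nothing is read from them. Max, Mxd4 and Mlx overlapped between the genotypes in all 6 populations.

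The share of Mxd1 in the summed antagonists moved with its level. It was 24.03% to 42.4% in WT CMP against 10.8% to 18.9% in Tet2KO CMP, and 37.9% to 46.5% in WT GMP against 13.5% to 27.1% in Tet2KO GMP. The sum itself overlapped more: it was 9.93 to 14.2 CPM per kb in WT CMP against 5.58 to 10.0 in Tet2KO CMP, and 6.15 to 11.3 against 6.78 to 10.1 CPM per kb in GMP.

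Other measures moved with Mxd1 between the genotypes. Immediate early genes, which cells switch on within minutes of a stimulus, tissue dissociation included, were lower in Tet2KO CMP, GMP and MEP. By sign and by sum they were also lower in Tet2KO CLP. The list of 18 such genes was added after values were seen. Of these, 10 of 18 were called lower in CMP, 5 of 18 in GMP and 7 of 17 tested in MEP, and none was called higher. The shares over all genes called were 4.53%, 4.38% and 4.35%. By sign alone, 1 of 18 lay above 0 in CMP, 0 of 18 in GMP, 0 of 17 in MEP and 0 of 18 in CLP (median -1.41). In LT-HSC 11 of 18 lay above 0 (median 0.25), and in ST-HSC 8 of 18 (median -0.09). Their summed level was 3320 to 5313 CPM in WT CMP against 951 to 2037 in Tet2KO CMP, and 3105 to 4134 against 1042 to 2051 CPM in GMP. In ST-HSC, where Mxd1 was also separate, the sums overlapped (3250 to 4822 against 2793 to 5073 CPM) and no gene of the list was called. In CLP they were 20528 to 30962 CPM in WT and 5407 to 12107 CPM in Tet2KO, the ends of which were replicates 5 and 4, and Mxd1 overlapped there. The gene Ier2 of this list was among the most similar to Mxd1 over the 46 libraries. The part of these genes in the Mxd1 difference was not tested.

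Erythroid and megakaryocyte markers, 10 genes summed, were 1468 to 2972 CPM in WT CMP and 4789 to 8858 CPM in Tet2KO CMP, and none of the 10 was at 0 in all libraries of either group. MEP, which carry these markers at 17323 CPM or more, had a lower Mxd1 level than CMP in WT. In GMP the sums were 57.9 to 127 CPM in WT and 74.9 to 175 CPM in Tet2KO and overlapped. Lymphoid markers, also 10 genes, were 196 to 315 CPM in WT CMP and 125 to 159 CPM in Tet2KO CMP (1 of the 10, Rag1, was at 0 in every Tet2KO CMP library and none in every WT CMP library), while their sums overlapped in ST-HSC, GMP and MEP. Over all 46 libraries their sum correlated with Mxd1 at r = 0.64, and at 0.50 over the 38 libraries without CLP, libraries that share populations. The share of mitochondrial counts was 5.94% to 6.57% in WT CMP against 7.85% to 8.37% in Tet2KO CMP, 3.64% to 4.60% against 4.74% to 5.09% in GMP, and 8.73% to 9.02% against 10.0% to 13.1% in ST-HSC. In MEP, where Mxd1 was also separate, the shares overlapped (6.85% to 9.18% in WT against 8.96% to 9.74% in Tet2KO). The parts of cell composition and of mitochondrial counts in the Mxd1 difference were not tested, and the labels name no library batch.

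**Figure D4:**
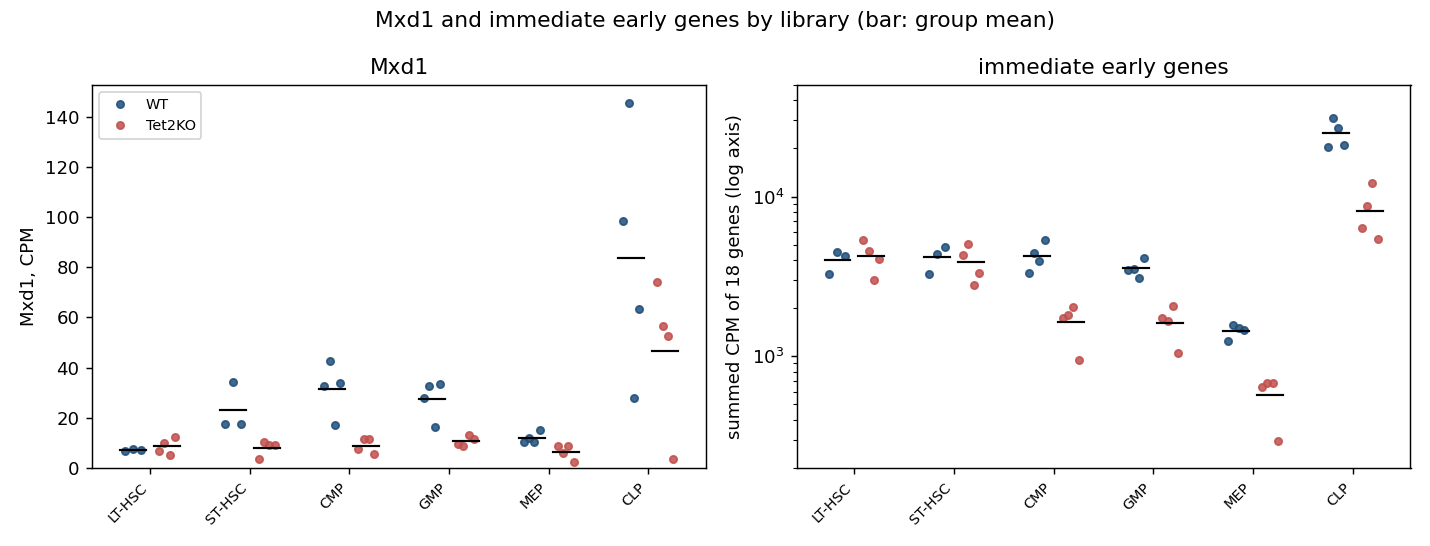
Mxd1 in CPM (left, axis from 0) and the summed CPM of 18 immediate early genes (right, log axis) in each library of 6 populations, WT in blue and Tet2KO in red, with a bar at each group mean. In CMP and GMP both panels show Tet2KO below WT, whereas in ST-HSC Mxd1 is separate (3.70 to 10.2 against 17.5 to 34.1 CPM) and the immediate early genes overlap.

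Of the 4 network genes outside the 9, Mlxip, the glucose-sensing partner of Mlx, fell in Tet2KO GMP. WT GMP libraries held 89.7, 83.1, 44.6 and 53.6 CPM and Tet2KO libraries 11.6, 35.9, 29.4 and 26.7 CPM (log2 fold change -1.42, SE 0.32, adjusted p = 0.0201). The genotypes did not overlap, but the call was lost without WT replicate 2, WT replicate 3 or Tet2KO replicate 5 (adjusted p = 0.0712, 0.0655 and 0.0574), with a replicate block (0.0528) and with all 46 libraries in the fit (0.718). Mlxip was also lower in WT MEP than in WT GMP (-2.02, SE 0.61, adjusted p = 0.0236), a call lost when any of 6 libraries was left out. Mycn, the Myc paralogue of stem cells, was at 73.3, 78.0, 110 and 102 CPM in Tet2KO LT-HSC against 37.4, 39.2 and 49.3 CPM in WT, with no overlap (1.13, SE 0.23, adjusted p = 0.522, and 0.000364 in DESeq2). Mnt, a repressor that pairs with Max, was at 10.4, 8.75, 8.37 and 4.78 CPM in Tet2KO CMP against 13.6, 21.9, 12.8 and 12.2 CPM in WT (-0.92, SE 0.30, adjusted p = 0.113). Mlxipl, best known from liver, was at 0 in most libraries and never above 1.97 CPM.

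Known targets of Myc were called between the genotypes about as often as all genes. Of a list of 62 targets chosen from general knowledge, none was called between genotypes in LT-HSC, ST-HSC and CLP. Only 0.0183%, 0.0185% and 0.00766% of all genes were called there, so nothing is read from this. In each of CMP (of 62), GMP (of 62) and MEP (of 61), 3 were called lower and none higher, beside the 4.53%, 4.38% and 4.35% of all genes called there. In LT-HSC, 11 of 62 targets lay above 0 and their median was -0.23 on the log2 scale, against 0.06 over all genes, and it stayed below 0 without any 1 library (-0.29 to -0.09). Without Tet2KO replicate 5, which had the highest mitochondrial share of the LT-HSC libraries (14.5%), 22 of 62 targets lay above 0. The median mitochondrial share was 12.7% in Tet2KO and 9.12% in WT LT-HSC, and the 24 cell cycle genes had a median of -0.25 with 7 above 0 (0.00 with 12 above 0 without WT replicate 5). The part of these in the targets' values was not tested. The targets' median was -0.10 in ST-HSC, 0.08 in CMP, 0.12 in GMP, 0.19 in MEP and 0.35 in CLP, against 0.04, 0.03, 0.03, 0.05 and 0.07 over all genes. By sign alone, 24 of 62 targets lay above 0 in ST-HSC, 42 of 62 in CMP, 47 of 62 in GMP, and 49 of 61 in each of MEP and CLP. Their sum was 11959 to 13313 CPM in Tet2KO CMP against 10130 to 11599 CPM in WT CMP, and overlapped in every other population. The CMP median was 0.02 (32 of 62 above 0) without Tet2KO CMP replicate 3, and the CLP median 0.03 (32 of 61) without Tet2KO CLP replicate 3.

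The targets called lower were far below the rest of the list. Srm, the spermidine synthase gene, was at 248 to 380 CPM in WT CMP, 287 to 541 in WT GMP and 399 to 439 CPM in WT MEP, against 32.2 to 50.03, 56.4 to 93.3 and 47.5 to 75.7 CPM in the Tet2KO groups (log2 fold changes -2.94, -2.49 and -2.79). Its WT ST-HSC level was 28.3 to 34.7 CPM, a range that overlapped Tet2KO CMP and lay under Tet2KO GMP and MEP. Rrs1, a ribosome assembly factor, fell by 2.71 in GMP, and Phb2, a prohibitin, fell by 1.36 in CMP and by 1.95 in MEP on the log2 scale. Prmt3, an arginine methyltransferase acting on ribosomal protein, fell by 1.54, 2.34 and 1.63 on the log2 scale in the same 3 populations. Most genes called in these populations were lower in Tet2KO, 622 of 727 in CMP, 672 of 725 in GMP and 627 of 649 in MEP.

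Corepressors of the Mxd proteins and partners of Mga also held single falls. Of 12 corepressor genes, Sap30, a Sin3 subunit, fell in Tet2KO CMP (-2.31, SE 0.37), GMP (-1.98, SE 0.29) and MEP (-2.34, SE 0.27), and Hdac2, a histone deacetylase, fell in GMP (-1.64, SE 0.21). Of 11 genes of the Mga complex, Pcgf6 fell in the same 3 populations (-1.06, -1.90 and -1.49). Of 13 genes that set the stability of Myc protein, Stub1, a ubiquitin ligase, fell in CMP (-2.46, SE 0.24) and MEP (-2.47, SE 0.19), and Pim1, a kinase, fell in GMP (-2.90, SE 0.49). None of 14 cofactors of Myc was called in any population. Of 24 cell cycle genes, Ccne1 and Ccna2, both cyclins, fell in GMP (-2.49 and -1.93) and in MEP (-1.70 and -1.23) and no other was called. No gene of these lists was called higher in Tet2KO. Over all genes, 4.53% were called in CMP, 4.38% in GMP and 4.35% in MEP, most of them lower. With lists of 11 to 24 genes, so few calls cannot be set apart from these shares, and nothing is read from them. By sign alone, 17 of 24 cell cycle genes lay above 0 in CMP (median 0.31), 14 in GMP and 16 in MEP. The number was 7 in LT-HSC, 11 in ST-HSC and 17 in CLP. Over all genes, 52.0% lay above 0 in CMP, 52.9% in GMP and 54.2% in MEP. The shares were 54.3% in LT-HSC, 53.1% in ST-HSC and 54.1% in CLP. The cell cycle sum was 4427 to 4604 CPM in Tet2KO CMP against 3267 to 4260 CPM in WT CMP, and overlapped in every other population.

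Along differentiation, Myc targets were called in both directions, depending on the step. In WT CMP against ST-HSC, 11 of 62 targets (17.7%) were called higher and none lower, beside 5.03% of all genes called. The median log2 fold change of the 62 was 0.43 against 0.00 over all genes. Srm rose by 3.32 (SE 0.30) and Phb2 by 2.37 (SE 0.36). Rrp9 and Bop1, which act in ribosome assembly, rose by 2.03 (SE 0.47) and 1.91 (SE 0.33). Of 24 cell cycle genes 6 (25%) were called higher, led by Plk1 (2.62, SE 0.65), Ccna2 (2.43, SE 0.58), Rrm2 (2.26, SE 0.43) and Mcm6 (2.01, SE 0.41). In Tet2KO, 9 of 62 targets (14.5%) were called higher in this step and none lower, beside 3.34% of all genes. In WT CLP against ST-HSC, where Myc had its lowest level, 9 of 62 targets were called higher and 14 lower (median -0.43, against -0.10 over all genes). Together these were 37.1% of the targets, beside 24.1% of all genes. Bop1 was the largest of those that rose (2.52, SE 0.34), with Wdr12 (-2.56, SE 0.21), Apex1 (-2.49, SE 0.31) and Nop16 (-2.34, SE 0.15) among those that fell. The same step in Tet2KO had 8 called higher and 5 lower. Together these were 21.0% of the targets, near the 19.5% of all genes, and nothing is read from them. In WT MEP against CMP, where the Myc mean was lower, 51 of 62 targets lay above 0 (median 0.38, against -0.12 over all genes). Of the targets, 4.84% were called there, beside 6.39% of all genes. In WT MEP against GMP, 8 were called higher and 4 lower (19.4%, beside 14.5%). The summed targets were 15709 to 17683 CPM in WT MEP and 11109 to 12676 CPM in WT GMP. Myc correlated with this sum at r = 0.65 over the 46 libraries, and 0.35 without CLP.

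Genes whose levels were most like those of the members were sought among 8870 genes with a mean of at least 10 CPM, by Pearson correlation of log2 CPM over the 46 libraries. These libraries share populations, so the values describe the pattern over cell types, and r without the 8 CLP libraries is given beside each. For Myc they were Exosc5 (r = 0.84, and 0.70 without CLP), Grwd1 (0.78 and 0.76), Wdr4 (0.77 and 0.72), Bcl2l12 (0.77 and 0.81) and Cdca7 (0.77 and 0.76). For Mxd1 they were Sqstm1 (0.78 and 0.73) and Ier2 (0.77 and 0.68), and for Max they were Slc12a2 (0.77 and 0.66) and Mark3 (0.71 and 0.52). For Mxd3 they were Zranb3 (0.74 and 0.67) and Brca1 (0.74 and 0.73), and for Mxd4 they were 9530068E07Rik (0.67 and 0.66) and Usp11 (0.62 and 0.67).

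For Mxi1 the most alike were Fem1b (0.90) and Atpsckmt (0.88), which fell to 0.14 and 0.20 without CLP, where Mxi1 was at 0.0515 and 0 CPM in Tet2KO replicates 2 and 3. For Mga, Ccdc191 was among the most alike (0.83 and 0.42), and for Mlx they were Psen2 (0.59 and 0.45) and Rab18 (0.52 and 0.54). Mycl was most like Igkv2-137 (0.64) and Igkv4-59 (0.62), values of 0.10 and -0.10 without CLP. Among the members and the 4 other network genes, the highest correlation was that of Mga with Mycn (0.44), and within the 9 that of Myc with Mxd4 (0.39). The lowest were those of Mxd1 with Mga (-0.49), Mga with Mlxipl (-0.46), Max with Mxd4 (-0.43) and Myc with Max (-0.40).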

How the data were processed

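RNA-seq libraries of 200 cells (per the labels, 300 in the study's methods) were made with a SMART-seq kit, which marks no strand. The authors deposited raw counts per gene, unnormalized. Reads were trimmed with Trim Galore and mapped to mm10 with HISAT2, the submitters' notes also name mm9 and DESeq2, and the counting program is not given in the sources used here. A second count table of 9 LT-HSC libraries was not used. Library totals were 50458473 to 102148079 counts.

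Groups followed the labels. Genes passing filterByExpr were fitted with edgeR 4.0.16 (R 4.3.3, limma 3.58.1; TMM, robust quasi-likelihood), genotypes within each population and populations within each genotype, and p-values were Benjamini-Hochberg adjusted over all genes tested. Calls needed an adjusted p under 0.05 and at least a 2-fold change, or an adjusted p under 0.05 in F tests. Log2 CPM used a prior count of 2. The study counts its transcriptome replicates as mice, which the labels only number, and the p-values measure the spread between these libraries. The scripts were tested on simulated counts with known changes. Between genotypes, edgeR called 0 of 94 genes changed 2-fold in LT-HSC and 7 of 95 in CMP. At 4-fold it called 18 of 95 in LT-HSC and 60 of 97 in CMP. The interaction test called 0 of 97 genes at 2-fold and 12 of 97 at 4-fold. A missing call therefore does not show that a gene is unchanged.

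The members and lists were chosen with earlier results of these data known. Beside the 9 members, the text names the 4 other network genes, up to 4 called genes with the largest change of each list in the comparisons described, and the genes most correlated with each member (1 of these is not reported here); the immediate early list and the fits without Tet2KO CLP libraries 2 and 3 were added after values were seen. Alternatives were DESeq2 1.42.0, RLE scaling, no filter, a replicate block, all 46 libraries in 1 fit, leaving out each replicate, and limma voom with a correlation between libraries.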

Additional observations from a re-analysis of the deposited data

Results flagged for a closer look

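In 9 of 90 groups of 4 libraries, 1 library stood apart from the other 3 by Dixon's criterion. This is a gap above 0.829 of the range of log2 CPM, which chance gives in about 1 of 20 groups of normally spread values. Groups at 0 in every library are among the 90 and could not be flagged. The values below are in CPM. For Mxd1 these were Tet2KO ST-HSC replicate 2 (3.70 CPM, others 8.94 to 10.2) and Tet2KO CLP replicate 5 (3.57 CPM, others 52.5 to 74.3). For Max they were WT GMP replicate 4 (16.5 CPM, others 26.3 to 27.7) and Tet2KO MEP replicate 5 (30.1 CPM, others 40.2 to 41.1). For Mxd3 they were WT MEP replicate 4 (1.87 CPM, others 1.51 to 1.52) and WT CLP replicate 5 (0 CPM, others 7.50 to 9.91). For Mlx it was Tet2KO GMP replicate 4 (25.4 CPM, others 51.2 to 55.3). For Mycl they were Tet2KO GMP replicate 3 (1.51 CPM) and WT CLP replicate 2 (0.152 CPM), with 0 in the others. Such groups always pass the criterion, so nothing is read from these.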

How the results depend on the processing

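The fall of Mxd1 in Tet2KO CMP and GMP kept its direction under every alternative run. Of 976 alternative counts of called genes or members, 888 were within 1.5 times the reported count and 88 were not. Of 1124 alternative values of single genes named or called, 1051 kept their direction and side of the threshold, 7 reversed, 38 lost a call and 28 gained one. The cause of the changes was not tested.

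DESeq2 called more genes than edgeR between genotypes: 230 against 3 in LT-HSC, 325 against 3 in ST-HSC, 1234 against 727 in CMP, 1046 against 649 in MEP, 447 against 1 in CLP, 2613 against 770 for the mean and 1408 against 595 for the interaction. Between WT populations it called 789 against 36 (ST-HSC against LT-HSC), 2242 against 1007 (CMP against ST-HSC), 1433 against 634 (GMP against CMP) and 2365 against 1278 genes (MEP against CMP). In Tet2KO it called 844 against 24, 1968 against 648, 1705 against 602 and 2043 against 690 genes in the same steps, and 4586 against 3006 in MEP against GMP. It called 1 member in ST-HSC, 2 in CMP, 1 in WT ST-HSC against LT-HSC, 1 in Tet2KO GMP against CMP and 2 in Tet2KO MEP against GMP, where edgeR called 0, 1, 0, 0 and 0.

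With all 46 libraries in 1 fit, 22 genes were called in LT-HSC, 21 in ST-HSC, 287 in CMP, 216 in GMP, 420 in MEP and 1447 in CLP, and 0 members in CMP and GMP. Without Tet2KO CLP libraries 2 and 3, 3 genes were called in CLP, and 69, 1409, 1246 and 1177 in the Tet2KO steps ST-HSC against LT-HSC, CMP against ST-HSC, GMP against CMP and MEP against CMP. There, 0 members were called in Tet2KO CLP against ST-HSC, and the mean difference of Mycn turned from 0.65 to -0.30.

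WT and Tet2KO libraries of the same number correlated between -0.0557 and 0.12 in their deviations from the group means, and the means over same-numbered libraries of different populations were 0.04 to 0.0984, so the numbers were not taken as pairs. The replicate block gave 0 genes in CLP, 0 members in CMP (Mxd1) and 2 members in WT CLP against ST-HSC.

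Leaving out 1 replicate gave 0 to 2 genes between genotypes in CLP, 1 to 2 members in CMP and 0 to 1 members for the mean. Myc, not called, ran from -0.32 to 0.14 in LT-HSC, -0.066 to 0.32 in MEP and -0.42 to 0.093 in CLP. Gene counts in WT ran from 18 to 84 (ST-HSC against LT-HSC), 647 to 1305 (CMP against ST-HSC) and 393 to 881 (GMP against CMP), and in Tet2KO from 9 to 53, 337 to 1202 and 253 to 1048, with 485 to 1049 in MEP against CMP. Members called ran from 1 to 2 in WT CLP against ST-HSC, 0 to 1 in WT MEP against CMP, 0 to 2 in WT MEP against GMP, 1 to 4 in Tet2KO CLP against ST-HSC and 0 to 1 in Tet2KO MEP against GMP. The number of libraries, 3 or 4 a group, and the spread of the CLP libraries limit what could be called.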
